A study of Homo sapiens with 6 samples.

Results

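The genes of 7 carrier families that move amino acids, taurine and related small molecules across membranes were examined in ARPE-19, an established line of human retinal pigment epithelium. They were taken by symbol alone, as every entry named SLC1A, SLC3A, SLC6A, SLC7A, SLC36A, SLC38A or SLC43A followed by a number. That gave 59 genes among the 20461 entries with an Ensembl identifier: 7 of SLC1A, 2 of SLC3A, 19 of SLC6A, 13 of SLC7A, 4 of SLC36A, 11 of SLC38A and 3 of SLC43A. All cells had been transduced with lentivirus at a multiplicity of infection of 10, selected with 4 µg/ml puromycin and kept in 37.5 mM glucose for 48 h. The virus carried PDZK1, a scaffold protein whose PDZ domains bind the tails of membrane carriers, in 3 libraries, and was the control virus in the other 3. Normal glucose was in neither group, so the comparison concerns added PDZK1 within high glucose. The model is a single transduced line whose PDZK1 comes from a vector, and the labels do not say that the libraries came from separate cultures. The study describes its data in general as repeated independent experiments without tying this to the libraries, so p-values measure the spread between these libraries, which may be technical.

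Carriers of the SLC6 and SLC38 families use the sodium gradient to pull amino acids into the cell. The SLC7 light chains mostly exchange one amino acid for another and reach the membrane only when joined to a heavy chain, SLC3A2 or SLC3A1. Some SLC36 carriers and several SLC38 members sit on lysosomes, where amino acids are reported to the mTOR kinase. The pigment epithelium is known for passing taurine from the blood to the photoreceptors through SLC6A6. The symbol rule also takes in members with other cargo, such as the creatine carrier SLC6A8, the monoamine carriers SLC6A2 to SLC6A4 and SLC43A3, a nucleobase carrier.

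Estimated counts per library totalled 27970618 to 32804567. Control replicate 3 was the shallowest library, and several results below move when it is left out. PDZK1 stood at 19, 18 and 23 counts in the controls and at 3020, 2541 and 2828 in the PDZK1 libraries, which is 7.03 higher on the log2 scale (SE 0.13, adjusted p = 8.2e-09). Of the pigment epithelial markers, MITF, OTX2, KRT8 and KRT18 were present, while RPE65 and TTR were listed at 0 in all 6 libraries. LRAT and SERPINF1 did not overlap between groups, at 2.34 ± 0.18 and 1.32 ± 0.57 CPM (adjusted p = 0.20) and at 1.24 ± 0.14 and 0.70 ± 0.31 CPM (adjusted p = 0.29). Thus 2 of the 10 tested markers of this list were lower in every PDZK1 library, beside 12.3% of all genes tested. BEST1 had 11459 counts in PDZK1 replicate 1 and 124 to 181 elsewhere. CRX, STMN2, CDH5, HBB, PTPRC, AQP4 and S100B, which mark photoreceptors, neurons, vessels, blood and glia, were at 0 in every library. Other genes of the same lists were not: PDE6B had 386 to 519 counts and SYT1 545 to 756, with overlapping groups. KDR stood at 155, 149 and 141 counts in the controls and 119, 117 and 107 with PDZK1 (adjusted p = 0.11), SNAP25 at 10, 7 and 5 against 25, 18 and 25 (adjusted p = 0.076), and RBFOX3 at 6, 7 and 8 against 1, 0 and 0, each without overlap. The part of these genes in the results on the carriers was not tested. In bulk RNA, fewer cells with a transcript and less of it per cell cannot be told apart.

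Levels across genes were compared as FPKM, fragments scaled by transcript length and by the fragments of the library. By this measure 11 members averaged at least 10 FPKM over the 6 libraries, 11 lay between 1 and 10, and 37 lay under 1. The heavy chain SLC3A2 was the most abundant, at 131 ± 5.39 FPKM in the controls and 139 ± 4.16 with PDZK1 (mean ± SD, n = 3). Its main light chain SLC7A5, which exchanges large neutral amino acids, came next at 107 ± 9.10 and 121 ± 8.18 FPKM. These 2 genes held 48.2% ± 1.54 of the FPKM of all members in the controls, and the 10 highest held 87.9% ± 0.21. Below them came the glutamine carrier SLC38A1, the creatine carrier SLC6A8 and the cationic amino acid carrier SLC7A1, at means of 39.3, 32.95 and 28.97 FPKM over the 6 libraries. In the controls and with PDZK1, SLC6A8 and SLC7A1 stood at 32.3 ± 0.51 and 33.6 ± 1.54 FPKM for the first and 29.4 ± 1.02 and 28.6 ± 0.81 FPKM for the second. The taurine carrier SLC6A6 ranked 14th, with 6.04 FPKM.

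**Figure D1:**
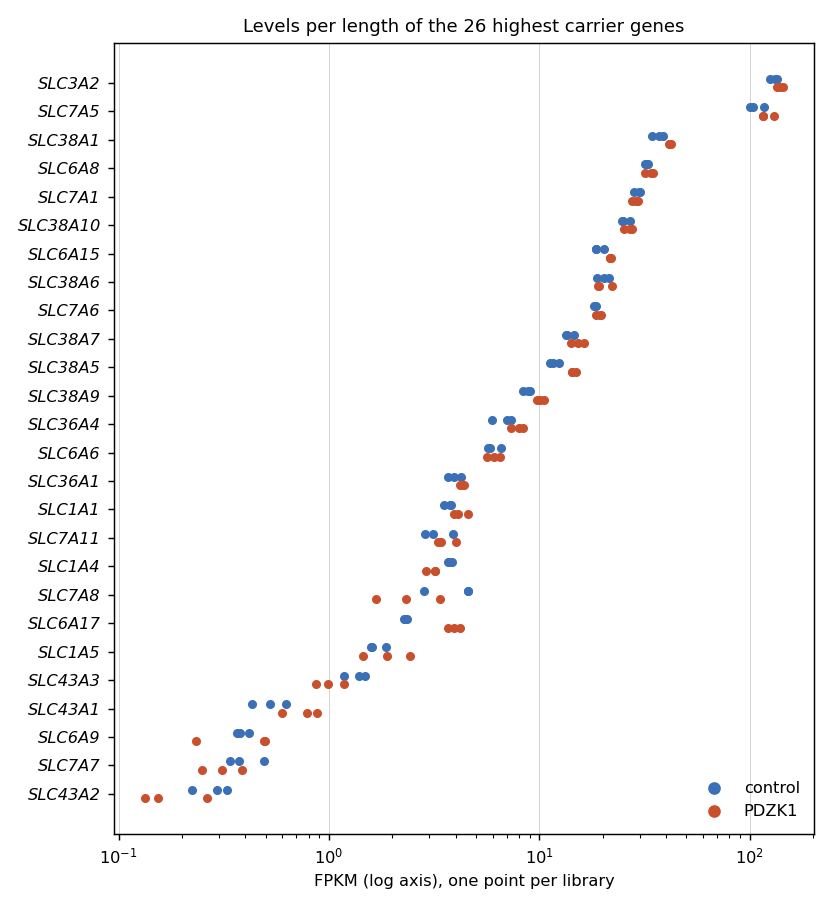
FPKM of the 26 most abundant members on a log axis, with 1 point per library and control libraries above PDZK1 libraries in each row. SLC3A2 and SLC7A5 lead at means of 134.8 and 113.9 FPKM over the 6 libraries, and the points of SLC6A17 and SLC6A15 are separated by group while those of SLC6A6 overlap.

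Between groups, 28 members had enough counts to be tested, and 2 passed the threshold of an adjusted p under 0.05, both higher with PDZK1: SLC6A17 and SLC6A15. No member was lower past the threshold. For comparison, 3.83% of the 13645 genes tested passed, 1.41% higher and 2.41% lower. At an unadjusted p under 0.05 there were 10 members of 28, beside 17.5% of all genes. In CPM (counts scaled to the size of the library), the libraries of the 2 groups did not overlap for 7 members that were higher with PDZK1, beside 11.6% of all genes, and for 4 that were lower, beside 12.3%. Of the 28 tested, 19 had a positive log2 fold change and 9 a negative one. Their median was 0.10, with -0.00025 over all genes, and the median size was 0.17 against 0.08. The 28 were selected by the count filter and do not stand for all 59. Of the 59, 33 overlap a gene on the opposite strand, whose reads could not be set apart here.

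**Figure D2:**
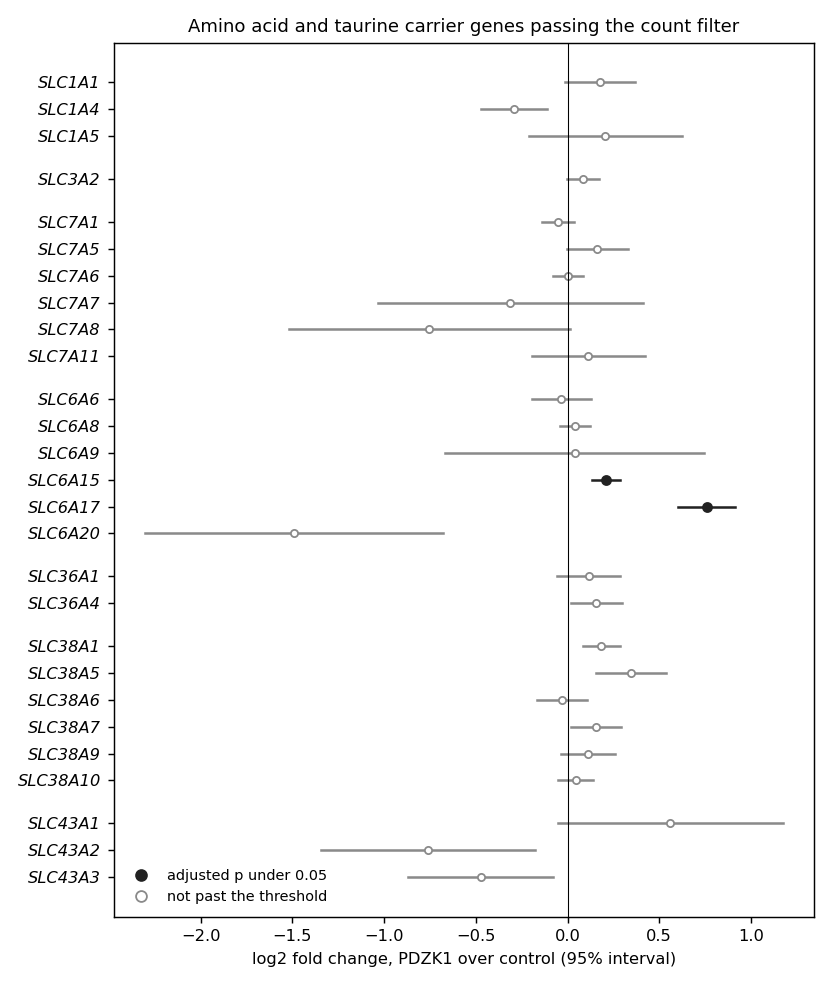
Log2 fold change of the tested members, PDZK1 over control, grouped by family, with 95% intervals of the edgeR model and filled points for adjusted p under 0.05. The filled points are SLC6A17 at 0.76 and SLC6A15 at 0.21, and SLC3A1, whose interval runs from -2.05 to 3.12, is left out of the plot.

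All 59 members together summed to 2207, 2136 and 2217 CPM in the controls and to 2327, 2390 and 2326 CPM with PDZK1. The groups did not overlap, and the PDZK1 mean was 1.07 times the control mean. By family, the sum was higher without overlap for SLC6A, at 291 ± 5.32 and 319 ± 5.29 CPM, for SLC38A, at 557 ± 22.9 and 615 ± 10.3 CPM, and for SLC3A, at 293 ± 12.9 and 311 ± 2.66 CPM. The small SLC43A sum went the other way, at 7.50 ± 0.74 and 6.14 ± 0.46 CPM, while the groups overlapped for the sums of SLC1A, SLC7A and SLC36A. Summed as FPKM instead, the SLC43A groups overlapped, at 2.155 ± 0.24 and 1.95 ± 0.24. The SLC36A sum was then higher without overlap, at 10.7 ± 0.84 and 12.2 ± 0.39 FPKM. These sums are given without a test, and each follows its most abundant members.

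The member with the clearest difference was SLC6A17, a neutral amino acid carrier known from synaptic vesicles of the brain (chr1:110150486-110202202, plus strand, GRCh38). It stood at 16.1, 16.5 and 15.9 CPM in the controls and at 27.1, 25.7 and 29.04 CPM with PDZK1. Every PDZK1 library lay well above every control library. The fold change was 1.69 (95% interval 1.52 to 1.88; log2 0.76, SE 0.069, adjusted p = 0.00047). 2 non-coding genes lie within it on the opposite strand, and how the counting treated strand is not given, so reads of these genes cannot be told apart from its own.

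SLC6A15, a sodium-dependent carrier of branched-chain amino acids and proline (chr12:84859488-84913615, minus strand), showed a smaller rise at a higher level. Its control libraries held 95.9, 95.2 and 98.1 CPM and its PDZK1 libraries 109.9, 113 and 112 CPM. The groups were tight and separate, with SDs of 1.49 and 1.399 CPM around means of 96.4 and 112 CPM. The fold change was 1.16 (95% interval 1.10 to 1.22; log2 0.21, SE 0.035, adjusted p = 0.010). The call did not survive the loss of some single libraries, and the adjusted p became 0.053, 0.073, 0.053 and 0.067 without control replicate 1, control replicate 2, PDZK1 replicate 1 or PDZK1 replicate 3, with log2 fold changes of 0.20 to 0.22.

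**Figure D3:**
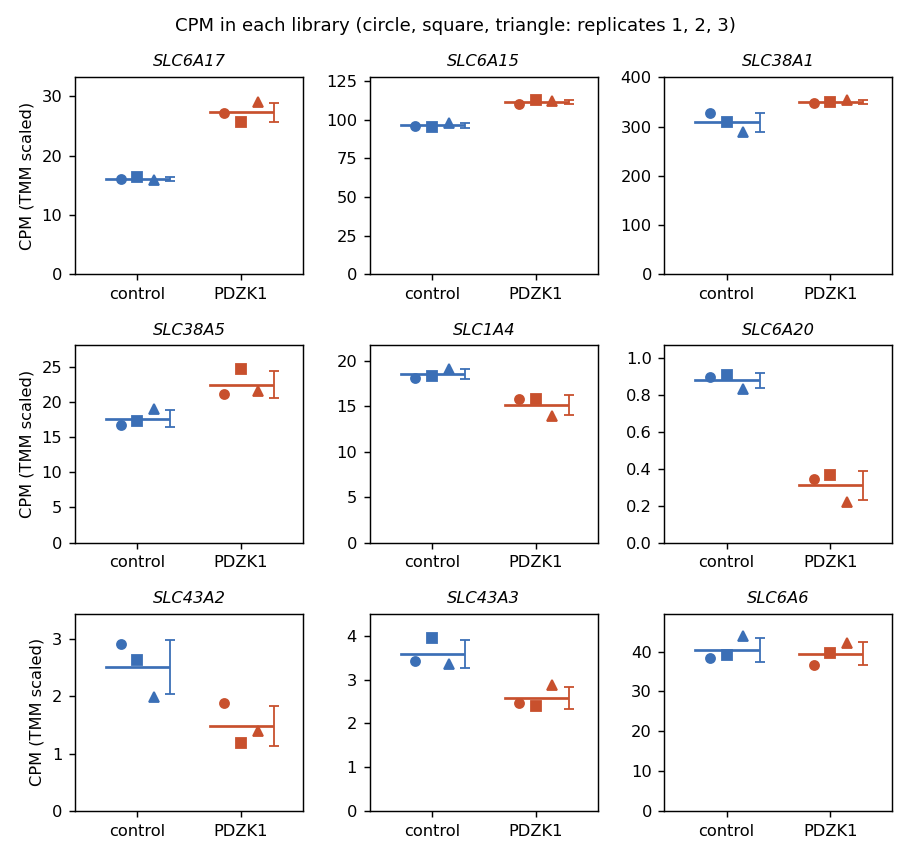
CPM of 9 members in each library, with circles, squares and triangles for replicates 1, 2 and 3, horizontal lines for group means and bars for 1 SD (n = 3). The groups are apart for SLC6A17, SLC6A15, SLC38A1, SLC38A5, SLC1A4, SLC6A20, SLC43A2 and SLC43A3, and they overlap for SLC6A6, the taurine carrier.

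The remaining SLC6A members with enough reads did not pass. SLC6A20, a proline carrier of epithelia, was rare, with 29, 28 and 23 counts in the controls and 11, 12 and 7 with PDZK1. That is 0.88 ± 0.040 CPM against 0.31 ± 0.078 CPM, without overlap and with a log2 fold change of -1.49 (95% interval -2.30 to -0.68, adjusted p = 0.055). It was the largest log2 difference among the 28 tested members and rests on few reads. For SLC6A8 the log2 fold change was 0.042 (95% interval -0.041 to 0.12), a narrow range around no difference. The glycine carrier SLC6A9, at 1.37 ± 0.10 and 1.41 ± 0.49 CPM, had an interval from -0.67 to 0.74 on the log2 scale.

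The taurine carrier SLC6A6 (chr3:14402576-14489349, plus strand) did not differ detectably. It had 38.5, 39.0 and 43.9 CPM in the controls and 36.6, 39.6 and 42.2 CPM with PDZK1. The ranges overlapped, with control replicate 3 the highest library and PDZK1 replicate 1 the lowest. The fitted change on the log2 scale was -0.034 (adjusted p = 0.86, SE 0.072) with a 95% interval from -0.20 to 0.13, so a fold change below 0.87 or above 1.09 lies outside the interval. Its direction is not set either, since it turned to 0.028 without control replicate 3 and to 0.019 without PDZK1 replicate 1. GRIP2 lies opposite it and 1 processed relative, SLC6A6P1, could share its reads.

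Around SLC6A6, the genes that make taurine or let it out gave a single call. Of 12 listed genes 9 were tested, and the median log2 fold change of these was -0.036. CDO1 and CSAD, which turn cysteine into hypotaurine, stood at 9.40 ± 0.84 and 9.23 ± 0.91 CPM for the first and 13.8 ± 0.35 and 13.5 ± 1.13 CPM for the second. SLC16A6, a carrier of the monocarboxylate family that also passes taurine, was the only one to pass the threshold, rising from 4.67, 4.56 and 3.30 CPM to 7.33, 5.98 and 7.98 CPM (log2 fold change 0.76, SE 0.17, adjusted p = 0.044). That is 1 of 9 tested, beside 3.83% of all genes. Whether this call holds with other methods or with 1 library left out was not tested. LRRC8E, a subunit of the volume-regulated channel through which swollen cells release taurine, did not overlap between groups at 21.6 ± 1.89 and 18.1 ± 1.36 CPM, with an adjusted p of 0.16. For the other listed subunits the groups overlapped. LRRC8A, the most abundant, had the higher mean with PDZK1, at 129 ± 5.8 and 137 ± 5.2 CPM (adjusted p = 0.37). LRRC8B, LRRC8C and LRRC8D had the lower mean with PDZK1. None of 8 osmotic stress genes passed, among them the osmotic factor NFAT5 at 151 ± 7.79 and 156 ± 8.49 CPM and the inositol carrier SLC5A3 at 113 ± 22.6 and 118 ± 16.5 CPM.

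In the SLC38 family, 5 of 6 tested members were higher with PDZK1 and none passed the threshold. SLC38A5, which carries glutamine, glycine and serine (chrX:48458537-48470256, minus strand), held 16.6, 17.3 and 18.9 CPM in the controls and 21.1, 24.6 and 21.5 CPM with PDZK1. All PDZK1 libraries were higher, and PDZK1 replicate 2 was the highest. The difference on the log2 scale was 0.35 (adjusted p = 0.056, SE 0.085), and its 95% interval ran from 0.16 to 0.54. Of the glutamine carriers named here, SLC38A1 (chr12:46183063-46270017, minus strand) had the highest level as counted. Whether the counting lost reads of SLC1A5 or SLC38A2 was not tested. SLC38A1 held 327, 309 and 289.5 CPM in the controls and 348, 349 and 354 CPM with PDZK1. Here the controls were spread and the PDZK1 libraries close together, again without overlap. For this gene the difference was 0.18 (adjusted p = 0.058, SE 0.045), with 0.082 to 0.29 as the 95% interval. Without control replicate 3 both genes passed, with adjusted p = 0.022 for SLC38A5 at a log2 fold change of 0.40 and 0.039 for SLC38A1 at 0.14, and SLC38A1 also passed without control replicate 1 (0.23, adjusted p = 0.038). In the remaining fits with 1 library left out neither passed. The adjusted p was then 0.12 to 0.19 for SLC38A5 and 0.13 to 0.21 for SLC38A1.

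None of the lysosomal members passed. SLC38A9, an arginine sensor that signals to mTOR, had 21.1, 20.6 and 21.3 CPM in the controls and 23.2, 21.4 and 23.6 CPM with PDZK1, which do not overlap but nearly touch (log2 fold change 0.11, adjusted p = 0.42). SLC38A7, a lysosomal glutamine exporter, stood at 62.9 ± 3.70 and 70.1 ± 3.90 CPM (0.16, adjusted p = 0.22). The proton-coupled carriers SLC36A4 and SLC36A1 stood at 40.6 ± 1.82 and 45.3 ± 2.77 CPM and at 23.5 ± 2.27 and 25.5 ± 0.62 CPM, with adjusted p of 0.23 and 0.50. For each of these 3 genes the groups overlapped. Of 22 genes of lysosomal amino acid sensing, all were tested and none passed, with a median log2 fold change of 0.035.

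SLC38A2, a small neutral amino acid carrier induced by starvation, was nearly absent from the table, with 18, 7 and 2 counts in the controls and 12, 7 and 5 with PDZK1. It did not reach the count filter. Some fits with another method, another filter or 1 library left out kept it. Their log2 fold changes lay between -0.65 (without control replicate 3) and 0.014 (without PDZK1 replicate 3). No adjusted p was under 0.62. Whether the counting lost reads of this gene was not tested.

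None of the heterodimer genes passed. SLC3A2, the shared heavy chain (chr11:62856102-62888875, plus strand), held 304, 279 and 295.5 CPM in the controls and 312, 311 and 308 CPM with PDZK1. The PDZK1 libraries were all higher, by a margin smaller than the spread of the controls. The log2 fold change was 0.084 (95% interval -0.0034 to 0.17, adjusted p = 0.31). SLC7A5 (chr16:87830023-87869488, minus strand) held 515, 497 and 584 CPM in the controls and 571, 644 and 571 CPM with PDZK1. Control replicate 3 lay above 2 of the PDZK1 libraries, so the groups overlapped, at a log2 fold change of 0.16 (95% interval -0.0025 to 0.33, adjusted p = 0.29). Without that library the log2 fold change was 0.23 and passed, at an adjusted p of 0.048. With any other single library left out SLC7A5 did not pass (adjusted p 0.36 to 0.57). SLC7A5 has 2 numbered pseudogenes that could take or give reads.

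Among the other light chains, SLC7A8, which also exchanges neutral amino acids, varied most within groups. It had 18.6, 18.4 and 10.9 CPM in the controls and 9.74, 6.53 and 12.2 CPM with PDZK1. Control replicate 3 fell within the PDZK1 range. The log2 fold change of -0.75 had a 95% interval from -1.52 to 0.014 (adjusted p = 0.29). SLC7A11, the cystine and glutamate exchanger that feeds glutathione synthesis, held 32.8, 30.0 and 41.0 CPM in the controls and 34.5, 42.3 and 35.4 CPM with PDZK1, with groups that overlapped through control replicate 3. Its log2 fold change was 0.11 (95% interval -0.19 to 0.42, adjusted p = 0.73), and became 0.25 without control replicate 3, 0.17 without PDZK1 replicate 1, 0.021 without control replicate 2 and 0.019 without PDZK1 replicate 2, with no adjusted p under 0.15. SLC7A6, which exchanges cationic for neutral amino acids, stood at 116 ± 4.32 and 116 ± 0.54 CPM (0.00095, 95% interval -0.081 to 0.083). SLC7A7, with the same function in gut and kidney, was rare at 1.02 ± 0.19 and 0.82 ± 0.20 CPM. None of 12 tested genes of cystine and glutathione use passed, with GPX4 at 291 and 273 CPM and GSR, the glutathione reductase, at 90.1 and 98.2 CPM being 2 of those whose groups did not overlap.

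Per length, the light chains that pair with SLC3A2 were near it in 5 of 6 libraries and above it in PDZK1 replicate 2. Their summed FPKM was 0.99, 1.01 and 1.06 times that of SLC3A2 in the controls and 1.01, 1.15 and 1.00 times with PDZK1, so the groups overlapped. SLC7A5 supplied 80.4% ± 1.74 of that sum in the controls and 82.5% ± 1.25 with PDZK1. SLC7A8 supplied 3.03% ± 0.91 and 1.70% ± 0.64, also with overlap, and SLC7A10 was listed at 0. SLC3A1, the heavy chain of the kidney cystine carrier, had 15, 12 and 0 counts in the controls and 26, 14 and 1 with PDZK1. It was lowest in replicate 3 of each group, overlaps the coding gene PREPL, and had an interval too wide to bound a difference. Its partner SLC7A9 had at most 7 counts in a library.

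**Figure D4:**
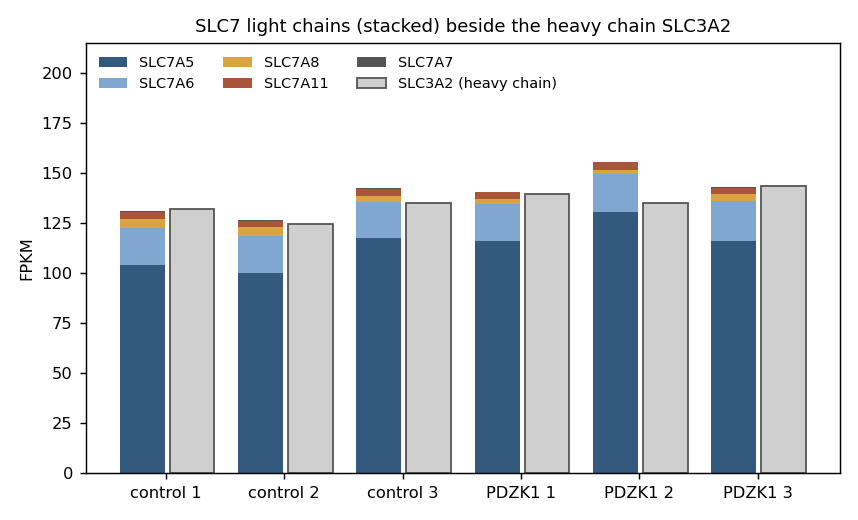
FPKM of the SLC7 light chains, stacked from SLC7A5 at the bottom to SLC7A7 at the top, beside the heavy chain SLC3A2 (grey) in each of the 6 libraries. SLC7A5 fills most of each stack, and stack and grey bar are of like height except in PDZK1 replicate 2, where the ratio is 1.15.

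Of the SLC1 family, which holds glutamate carriers and small neutral amino acid exchangers, SLC1A4 was the one that was lower. This exchanger of alanine, serine and cysteine (chr2:64988477-65023865, plus strand) held 18.1, 18.4 and 19.1 CPM in the controls and 15.8, 15.8 and 13.9 CPM with PDZK1. The groups did not overlap and the fitted log2 difference was -0.29 (adjusted p = 0.087, SE 0.080), between -0.47 and -0.11 in its 95% interval. SLC1A1, the glutamate and cysteine carrier, lay on the other side at 14.2, 15.4 and 15.2 CPM against 16.5, 15.9 and 18.3 CPM, without overlap (0.18, adjusted p = 0.33). SLC1A5, the glutamine exchanger, had only 188, 149 and 136 counts in the controls and 240, 195 and 144 with PDZK1. In both groups replicate 1 was the highest, and the log2 fold change of 0.21 had a 95% interval from -0.21 to 0.63. It was 0.016 without PDZK1 replicate 1 and 0.37 without PDZK1 replicate 3. Whether the counting lost reads of SLC1A5 was not tested. The glial glutamate carrier SLC1A3 was listed at 0 in all 6 libraries.

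The SLC43 family was the only one of the 7 whose tested members were mostly lower, 2 of 3, beside 6837 of all 13645 genes tested. None of the 3 passed the threshold. SLC43A2, which lets branched-chain amino acids and phenylalanine pass without sodium, had 94, 81 and 55 counts in the controls and 60, 39 and 44 with PDZK1. In CPM that was 2.91, 2.62 and 1.99 against 1.87, 1.19 and 1.39, so the groups did not overlap although the counts did (log2 fold change -0.76, 95% interval -1.34 to -0.17, adjusted p = 0.16). SLC43A3 had 3.44, 3.95 and 3.37 CPM against 2.47, 2.41 and 2.87 CPM, without overlap (-0.47, adjusted p = 0.19). SLC43A1, which carries the same cargo as SLC43A2, had a value of the opposite sign at 0.56 (adjusted p = 0.33), from 1.41 ± 0.33 to 2.07 ± 0.38 CPM.

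The other 31 members did not reach the count filter. Of these, 14 were listed at 0 in every library, 4 had at most 3 counts in any library, and 13 exceeded 3 counts somewhere, with 18 as the highest count. They include the dopamine and noradrenaline carriers SLC6A3 and SLC6A2, the intestinal and renal carriers SLC6A14, SLC6A18 and SLC6A19, and the SLC36 family members SLC36A2 and SLC36A3, all listed at 0. A count of 0 allows up to 3 counts, or 0.0915 to 0.109 CPM by library, and covers counting error only. SLC7A2, a cationic amino acid carrier singled out after its values were seen, had 0 counts in the 3 controls and 7, 14 and 8 with PDZK1. Its mean of 0.30 ± 0.11 CPM was 3.01 times what the control mean would be at 3 counts per library. This ratio leaves out the counting error of the PDZK1 libraries, so it is not a lower bound.

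Further lists around the carriers gave few calls. Of 27 carriers of other families 21 were tested and none passed, and of 14 genes that control carriers in the amino acid response all were tested and none passed. ATF4, the factor that switches on carrier genes when amino acids run short, was higher without overlap. It stood at 279 ± 5.24 and 296 ± 2.79 CPM (adjusted p = 0.21). Its target ASNS overlapped, at 46.3 ± 1.99 and 48.9 ± 6.42 CPM. TRIB3 of this list was also higher without overlap (adjusted p = 0.56). MYC and NFE2L2 were lower without overlap (adjusted p = 0.14 and 0.11). Of 12 partner proteins 11 were tested and PDZK1 itself was the only call. CLTRN, which brings SLC6A19 and its relatives to the surface, was at 0.34 ± 0.13 and 0.75 ± 0.093 CPM (adjusted p = 0.17).

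Promoter sequence was matched by symbol to RefSeq on GRCh38.p14 for 44 of the 59 members, among them SLC6A17 but not SLC6A15. Each entry spans 300 bases around a transcription start, most of them before it. The 3 shown belong to the members with an entry that had the smallest adjusted p among those higher with PDZK1. Capitals mark every match on either strand to the letters TGATGNAA (bound by ATF4 with a partner), TGACNNNGC (the antioxidant element), CACGTG (the E-box) or CCAAT.
SLC6A17, chr1:110150244-110150543, plus strand: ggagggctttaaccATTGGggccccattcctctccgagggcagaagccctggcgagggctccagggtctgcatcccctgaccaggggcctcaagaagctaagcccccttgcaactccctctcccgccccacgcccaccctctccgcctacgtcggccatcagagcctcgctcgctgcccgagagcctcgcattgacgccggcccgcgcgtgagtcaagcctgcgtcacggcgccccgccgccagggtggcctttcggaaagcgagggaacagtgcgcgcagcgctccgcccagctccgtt
SLC38A5, chrX:48470211-48470510, minus strand: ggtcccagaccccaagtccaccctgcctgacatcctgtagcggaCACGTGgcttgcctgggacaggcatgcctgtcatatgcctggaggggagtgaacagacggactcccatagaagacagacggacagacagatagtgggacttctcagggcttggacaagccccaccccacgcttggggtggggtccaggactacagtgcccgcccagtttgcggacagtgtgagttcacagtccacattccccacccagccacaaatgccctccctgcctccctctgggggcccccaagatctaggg
SLC38A1, chr12:46266467-46266766, minus strand: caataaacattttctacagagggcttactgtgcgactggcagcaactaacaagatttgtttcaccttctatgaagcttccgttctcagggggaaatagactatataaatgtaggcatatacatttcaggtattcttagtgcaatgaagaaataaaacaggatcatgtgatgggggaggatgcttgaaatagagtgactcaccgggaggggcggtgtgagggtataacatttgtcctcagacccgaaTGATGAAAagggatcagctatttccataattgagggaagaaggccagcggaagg
The capitals fall on a CCAAT box on the opposite strand in SLC6A17, an E-box in SLC38A5 and TGATGAAA, which begins 4 bases before the start, in SLC38A1. The 3 promoters thus share none of the motifs searched. A second SLC38A1 entry held no match.

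Over all members' entries, TGATGNAA was found in 6 of 66 promoters (9.09%), with 3.62% of all 35116 promoters. The tested members with it were SLC1A4, SLC1A5, SLC38A1, SLC3A2 and SLC7A1, which had log2 fold changes of -0.29, 0.21, 0.18, 0.084 and -0.051. CACGTG was found in 10 of 66 (15.2%, beside 7.26%), TGACNNNGC in 7 of 66 (10.6%, beside 13.3%) and CCAAT in 18 of 66 (27.3%, beside 34.6%). A match describes the letters of the window and no binding was measured here.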

How the data were processed

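The authors deposited 2 tables. The first holds estimated counts per gene and library, deposited as whole numbers without scaling for depth, and the second FPKM, as the authors computed them. The submitters' processing notes name fastp 0.20.1, HISAT2 2.2.1 and GRCh38. The counting program, strandedness and annotation are not given in the sources used here. Both tables also hold columns that match no sample (3 in each), which were not used, and 853 assembled loci (0.519% to 0.536% of counts) were left out of the main test. Groups were compared with edgeR 4.0.16 under R 4.3.3 (filterByExpr, TMM, robust quasi-likelihood test, Benjamini-Hochberg over 13645 genes), checked on simulated counts. The simulation gave every gene the same relative spread and changed only well-counted genes, so it does not cover rare members or outlier libraries. CPM used TMM-scaled library sizes. Errors are SD over n = 3. Positions are GENCODE on GRCh38, 1-based.

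The members, gene lists and tests were chosen with earlier results of these data known. Members were named if past the threshold, if not overlapping with unadjusted p under 0.05, if highest in FPKM or most changed (mean of at least 1 CPM) in their family, or if on a fixed list. From the other lists, calls and some genes without overlap or of known role were named, and SLC7A2 and the remaining members with values after they were seen. Alternatives were DESeq2 1.42.0, other scalings and count filters, assembled loci kept, limma 3.58.1 on log2 FPKM (pseudocounts 1 and 0.1, mean of at least 0.5 or no filter), the replicate number as a block, and each library left out. No protein sequences were used. Some items are not reported here.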

Additional observations from a re-analysis of the deposited data

How the results depend on the processing

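The number of members past the threshold was 2 in the reported test and also with another scaling (RLE), both other count filters and the assembled loci kept. It was 6 with DESeq2 (SLC38A1, SLC38A5, SLC6A15, SLC6A17 and SLC7A2 higher, SLC7A8 lower), 4 with library totals only (SLC38A1 and SLC38A5 added), and 1 with each of the 3 fits on log2 FPKM. Leaving out 1 library gave 1 to 5. The 5 came without control replicate 3 and added SLC38A1, SLC38A5 and SLC7A5 (0.23). SLC6A17 passed in all 16 alternatives and SLC6A15 in 8. Calls over all genes moved too, from 522 to 814 with DESeq2 (where 39 members were tested), 517 with library totals only, 184 to 191 on log2 FPKM and 181 to 875 without a library. The cause was not tested.

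With the replicate number as a block, 1 member and 163 of all genes passed, and SLC6A15 had an adjusted p of 0.067. Same-numbered libraries deviated from their group means with correlations of -0.046, -0.056 and -0.14, so the numbers were not taken to pair them.

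Signs were not compared across the alternatives for SLC38A6, SLC38A7, SLC38A10, SLC43A1, SLC6A9 and SLC7A1. Among the other tested members, values of 3 changed sign, none past the threshold. SLC6A6 turned to 0.0061 and 0.0070 on log2 FPKM with pseudocounts of 1 and 0.1 (0.0061 without the filter). It also turned to 0.028 and 0.019 without control replicate 3 or PDZK1 replicate 1. SLC3A1 turned to -0.0098 and -0.32 without the same libraries, and SLC7A6 to -0.028 and -0.0020 without control replicate 2 or PDZK1 replicate 3. Leaving out 1 library gave -0.32 to 1.08 for SLC3A1, -0.084 to 0.028 for SLC6A6, -0.028 to 0.024 for SLC7A6 and 0.10 to 0.23 for SLC7A5. Depth limits the rare members: 31 of 59 fell under the count filter, 45 could be tested with at least 1 count, and 14 had no count. SLC38A2 has no value in the reported test.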
